A study of Mus musculus with 32 samples.

Results

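The genes described here are 39 genes of mitosis, taken by symbol from the deposited table of estimated RNA-seq counts, in which all 39 are among 55103 rows. They comprise 8 kinases, cyclins and a phosphatase of mitotic entry (Cdk1, Ccnb1, Ccnb2, Ccna2, Cdc25c, Plk1, Aurka, Nek2), 4 spindle checkpoint genes (Bub1, Bub1b, Ttk, Mad2l1), 3 genes of anaphase onset (Cdc20, Ube2c, Pttg1) and 6 genes of the kinetochore and centromere (Cenpa, Cenpe, Cenpf, Ndc80, Nuf2, Spc25). The others are the 4 subunits of the chromosomal passenger complex (Aurkb, Birc5, Cdca8, Incenp), 6 spindle motors and microtubule binders (Kif11, Kif2c, Kif4, Tpx2, Nusap1, Hmmr), 6 genes of cytokinesis (Prc1, Kif20a, Kif23, Anln, Ect2, Racgap1) and, as proliferation marker and chromosome protein, Mki67 and Top2a. All 39 passed the filter on low counts, which left 20474 genes for the tests.

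Tumours grown from KPC36, a mouse cell line labelled malignant (KPC lines commonly derive from mouse pancreatic tumours), were analysed by bulk RNA-seq in 4 groups of 8 libraries: each beam, carbon ions or photons, had 8 irradiated tumours and 8 untreated control tumours of its own. The design text places collection at days 4 and 7 after treatment; the day of each library, the radiation dose, the genotype of the line and the strain of the host mice are not given in the sources used here. No label states that the libraries came from separate animals, so the p-values measure the spread between these libraries. Titles begin with D in 4 carbon-ion controls and 3 carbon-irradiated libraries and with M in all others, and title numbers reach at most 48 among photon controls but start at 95 after photons, so that whatever these numbers stand for cannot be told apart from photon treatment. Totals ranged from 13891863 to 71645903 estimated counts per library. Of the epithelial markers, keratins were high in every library (Krt8 690.1 to 1719 CPM and Krt18 634 to 1225 CPM, where CPM are counts scaled to the size of the library). Epcam lay between 10.5 and 91.4 CPM, Cldn4 between 1.22 and 17.99 CPM and Cldn7 between 0.52 and 9.85 CPM. Of the acinar markers, the protease Prss1 was at 0 in all 32 libraries, whereas Cela1 lay between 6.01 and 20.8 CPM. The other acinar markers reached at most 0.897 CPM.

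A cell enters mitosis when cyclin-dependent kinase 1 is activated by its B-type and A-type cyclins. Kinetochore and motor proteins then attach and align the chromosomes, and the spindle checkpoint holds back the anaphase-promoting complex until every chromosome is attached; Cdc20 and Ube2c then drive the destruction of cyclin B and securin, and a central spindle guides the division of the cytoplasm. Most of these genes are transcribed in a wave late in the cell cycle, so in tumour tissue their RNA is commonly read as a measure of dividing cells. In bulk tissue, fewer dividing cells and less RNA per dividing cell cannot be told apart.

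Late cell-cycle transcription is known to run through 2 promoter elements, the cell cycle genes homology region (CHR, here TTTGAA or TTTAAA), bound by the DREAM and MuvB complexes, and the CCAAT box, bound by NF-Y. The promoters of 6 of the genes that hold both elements are shown with these letters in capitals on either strand (the reverse complements are TTCAAA and ATTGG), together with that of Pttg1, which was added after its values were seen because it moved apart from the other genes. Each stretch runs from 200 bases before to 30 bases from the transcription start and comes from RefSeq (GRCm38.p6, the assembly of mm10).
Mki67, chr7:135716350-135716579, minus strand: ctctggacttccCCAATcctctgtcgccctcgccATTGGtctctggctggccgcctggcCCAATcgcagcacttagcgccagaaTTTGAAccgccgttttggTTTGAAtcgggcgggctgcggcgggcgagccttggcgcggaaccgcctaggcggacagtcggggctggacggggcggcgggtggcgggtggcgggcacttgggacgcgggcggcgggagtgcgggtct
Top2a, chr11:99024160-99024389, minus strand: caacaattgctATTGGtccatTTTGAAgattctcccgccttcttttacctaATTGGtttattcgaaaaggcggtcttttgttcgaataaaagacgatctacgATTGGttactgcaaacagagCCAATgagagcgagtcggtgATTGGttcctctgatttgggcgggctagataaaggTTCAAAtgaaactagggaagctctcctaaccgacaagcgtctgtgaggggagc
Cdk1, chr10:69352883-69353112, minus strand: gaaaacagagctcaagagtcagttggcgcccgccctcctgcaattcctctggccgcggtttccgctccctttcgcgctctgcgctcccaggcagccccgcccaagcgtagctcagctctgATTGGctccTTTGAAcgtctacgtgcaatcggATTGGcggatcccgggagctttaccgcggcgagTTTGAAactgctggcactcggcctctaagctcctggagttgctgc
Ccnb1, chr13:100786457-100786686, minus strand: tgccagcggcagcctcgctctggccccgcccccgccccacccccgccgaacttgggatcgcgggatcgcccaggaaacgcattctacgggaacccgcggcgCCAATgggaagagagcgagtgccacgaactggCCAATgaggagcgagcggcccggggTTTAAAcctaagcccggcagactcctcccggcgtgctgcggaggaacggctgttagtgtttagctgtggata
Plk1, chr7:122159235-122159464, plus strand: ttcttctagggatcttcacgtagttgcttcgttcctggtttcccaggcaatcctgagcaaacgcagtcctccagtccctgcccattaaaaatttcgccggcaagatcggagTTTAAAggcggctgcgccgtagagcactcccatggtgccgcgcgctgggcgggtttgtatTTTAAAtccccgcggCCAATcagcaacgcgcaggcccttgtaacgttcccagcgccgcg
Bub1b, chr2:118598011-118598240, plus strand: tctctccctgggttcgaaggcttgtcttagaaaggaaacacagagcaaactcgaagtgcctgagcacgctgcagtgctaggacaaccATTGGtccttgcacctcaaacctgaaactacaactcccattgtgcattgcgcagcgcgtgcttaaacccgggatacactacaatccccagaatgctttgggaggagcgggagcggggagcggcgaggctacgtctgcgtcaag
Pttg1, chr11:43425952-43426181, minus strand: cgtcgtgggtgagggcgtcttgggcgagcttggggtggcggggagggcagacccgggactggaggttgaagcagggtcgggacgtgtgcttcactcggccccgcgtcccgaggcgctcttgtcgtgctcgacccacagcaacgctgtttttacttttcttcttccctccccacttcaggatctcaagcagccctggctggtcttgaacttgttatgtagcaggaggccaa
The Top2a stretch holds CCAAT boxes on both strands and a CHR just upstream of the start, and that of Ccnb1 holds a pair of CCAAT boxes followed by a CHR. The CHR of Bub1b lies after its start, beyond the bases shown. The Pttg1 stretch holds neither element. Its RefSeq start (43425981) lies inside the gene as placed by GENCODE, which begins at 43426251 on the minus strand. The bases before that GENCODE start were not searched.

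A promoter was found for 33 of the 39 genes, in 35 windows from 250 bases before to 50 bases from the start. A CHR was present in 29 of these 35 windows (82.9%), against 27.6% of 32851 windows of all genes. A CCAAT box was present in 27 (77.1%), against 37.4%, and both elements in 25 (71.4%), against 10.7%. The CCAAT boxes clustered before the start, with 25 windows holding one within the last 100 bases (71.4%, against 18.9% of all windows), while a CHR lay there in 10 windows (28.6%, against 9.71%), and in the others after the start or further upstream. Neither element was found in the windows of Pttg1, Mad2l1, Nuf2 and Nusap1, and that of Pttg1 does not reach the bases before its GENCODE start. A CHR and a CCAAT box shared a base in Cdca8.

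**Figure D1:**
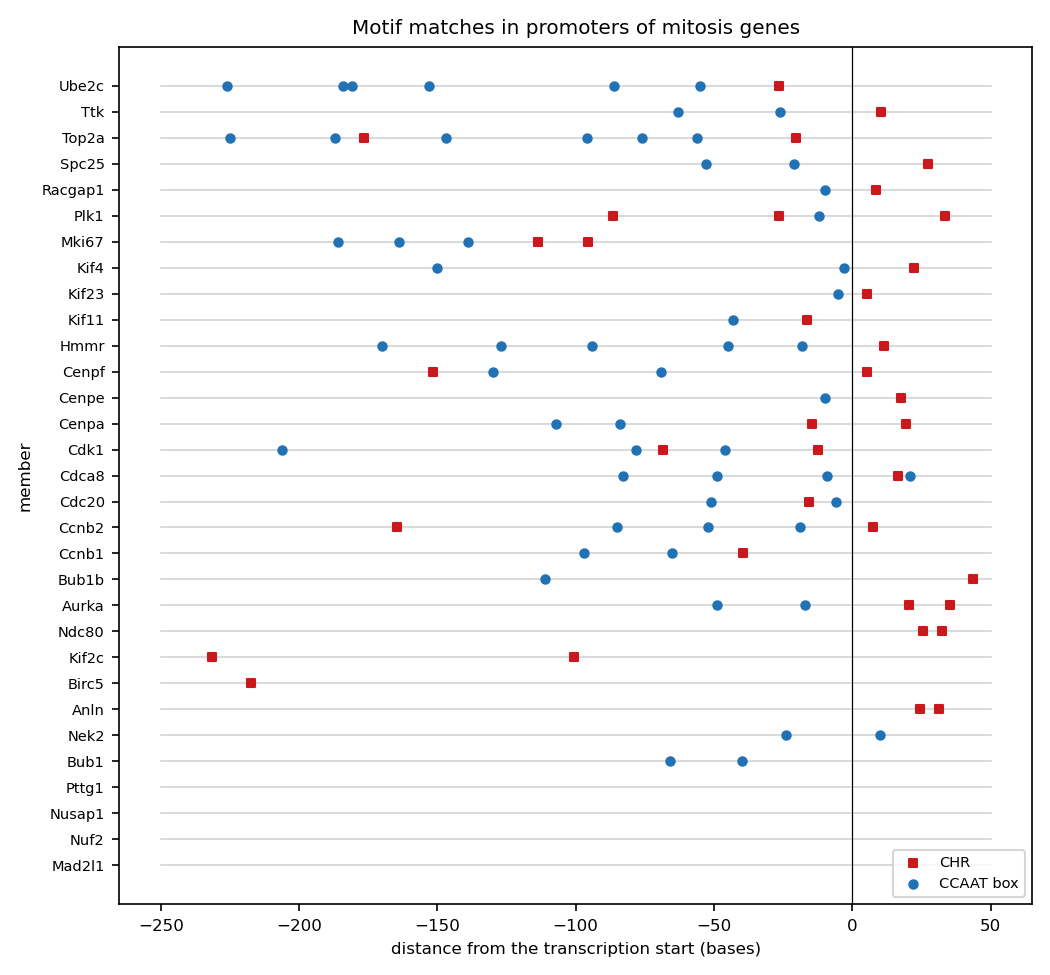
Matches to the CHR (squares) and the CCAAT box (circles) on either strand in the promoters of 31 genes with a single window, by distance in bases from the transcription start. CCAAT boxes gather within 100 bases before the start, and the lowest 4 lines (Pttg1, Nusap1, Nuf2, Mad2l1) hold no match.

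The genes varied together within groups, most closely in the photon arm. After removal of group means, 1 principal component held 87.0% of the variance of the 39 genes over the 32 libraries and the next 3.22%. For 30 genes this component held over 80% of their own variance. It held less for Cenpf (62.5%) and Incenp (67.1%) and almost none for Pttg1 (2.34%). In each group on its own, the first component held 96.8% among photon controls and 90.5% after photons, against 67.0% among carbon-ion controls and 62.9% after carbon ions. The spread was wider in the photon arm: the median within-group SD on the log2 CPM scale was 0.61 among photon controls and 0.49 after photons, but 0.24 among carbon-ion controls and 0.27 after carbon ions. Over all genes tested the corresponding medians were 0.31, 0.32, 0.29 and 0.39. All 39 genes varied more among photon controls than among carbon-ion controls, and 38 varied more among photon-irradiated than among carbon-irradiated libraries.

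A few libraries set this spread. The mean log2 CPM of the 39 genes was 5.05 ± 0.19 (SD, n = 8) for carbon-ion controls and 4.89 ± 0.20 after carbon ions. It was 5.17 ± 0.58 for photon controls and 4.65 ± 0.46 after photons. Photon controls 2 and 6, with means of 4.04 and 4.67, lay below their group's median for all 39 genes, and photon controls 5 and 8, with means of 5.75 and 5.73, lay above it for all 39. Among the photon-irradiated libraries, replicate 1 (mean 3.82) was below the group median for 39 genes and replicate 5 (4.08) for 38, whereas replicate 4 (5.19) was above it for 39. The photon groups therefore overlapped: photon control 2 was lower than 7 of the 8 irradiated libraries, and the highest irradiated library was above 3 controls. Of these low libraries, photon controls 2 and 6 had 51288223 and 26674093 estimated counts and photon-irradiated replicates 1 and 5 had 43281501 and 33741258. The part of depth in these values was not tested.

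**Figure D2:**
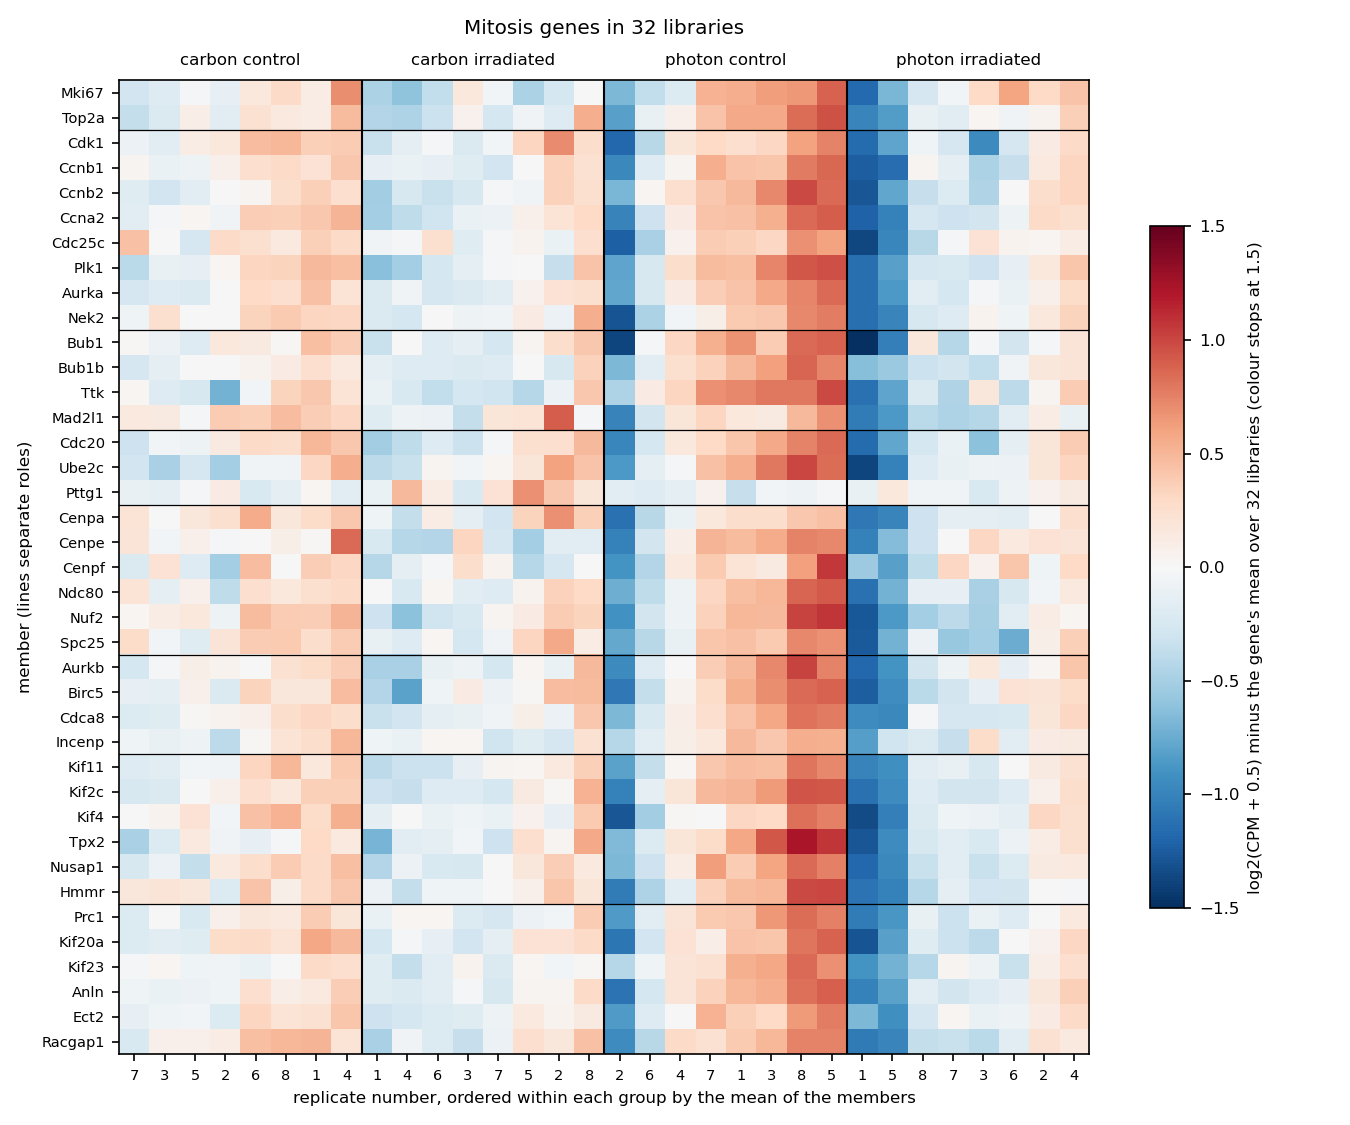
Expression of the 39 genes (rows, in the order of their roles) in 32 libraries (columns, by group), as log2(CPM + 0.5) minus each gene's mean over all libraries. Photon controls 5 and 8 are high and photon control 2 and photon-irradiated replicates 1 and 5 are low across nearly all rows, while the carbon columns differ less and Pttg1 does not follow the other rows.

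Skeletal muscle RNA differed between libraries as well. The 10 muscle markers summed to 3.78 to 1451 CPM among photon controls (median 705) and to 1.42 to 377 CPM after photons (median 9.10). In the carbon arm they reached 3.16 to 2741 CPM (median 249.0) in the controls and 4.17 to 3545 CPM (median 374) after irradiation. Of 7 libraries above 1000 CPM, 4 were photon controls (replicates 1, 5, 7 and 8), 2 carbon-ion controls (3 and 6) and 1 carbon-irradiated (3). The 4 photon controls included the pair with the highest mitosis genes, and no photon-irradiated library exceeded the limit. Results are therefore also given without these 7 libraries, a setting chosen after the marker sums were seen; it leaves 4 photon controls.

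**Figure D3:**
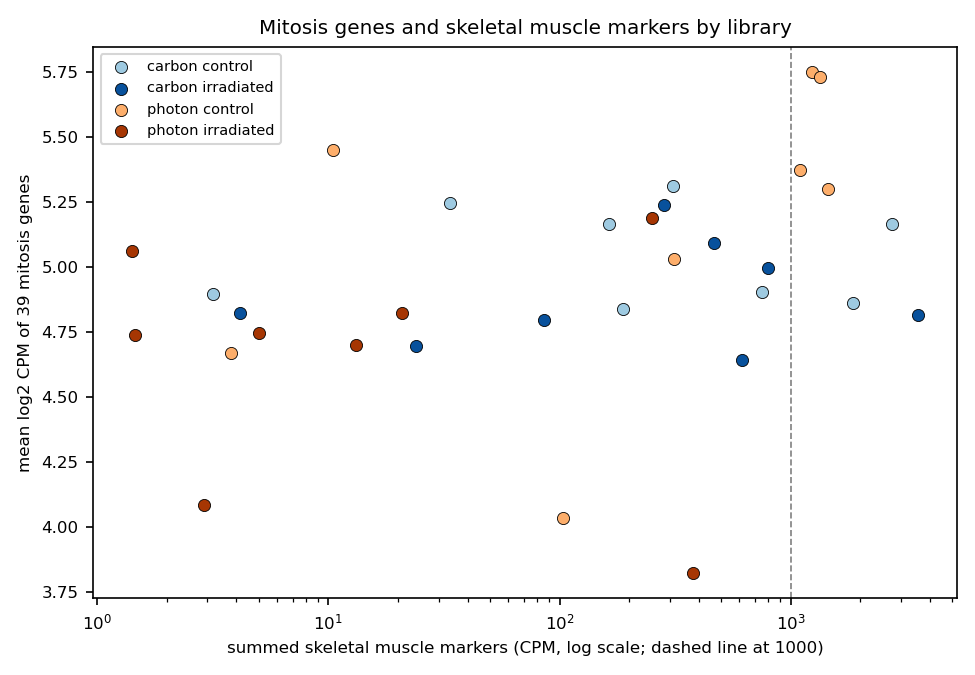
Mean log2 CPM of the 39 mitosis genes (vertical) against the summed CPM of 10 skeletal muscle markers (horizontal, log scale) in 32 libraries, coloured by group, with a dashed line at 1000 CPM. The 4 photon controls right of the line have means from 5.30 to 5.75, the 4 left of it from 4.04 to 5.45, and all photon-irradiated libraries lie left of the line.

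The photon comparison asks how photon-irradiated tumours differed from the untreated tumours of the same arm. In it, 10 of the 39 genes fell and none rose: Ttk, Kif23, Bub1b, Nuf2, Tpx2, Prc1, Ccnb2, Nusap1, Hmmr and Kif2c, by 0.59 to 0.83 on the log2 scale (edgeR's quasi-likelihood test with Benjamini-Hochberg adjustment over 20474 genes, adjusted p under 0.05). That is 25.6% of the genes, against 2.10% of all genes called lower. A further 21 had an unadjusted p under 0.05, which makes 31 of 39 against 12.7% of all genes lower at that level. Fold changes were below 0 for 38 genes, against 50.1% of all genes, with a median of -0.56 against 0.00 over all genes; Pttg1 was the exception. In 31 genes all 8 irradiated libraries lay below the control median, a pattern seen in 9.63% of all genes, but no gene had groups that did not overlap. Without the 7 libraries rich in muscle RNA none of the 39 genes passed, none had an unadjusted p under 0.05, the median was -0.18 and 2 genes in all were called. When each photon library was left out in turn, Ttk passed in 11 of 16 fits, Kif23 in 10, Bub1b in 7, Nuf2 and Tpx2 in 6 and the other 5 genes in 5 each. With only the photon groups in the fit none of the 39 passed either (smallest adjusted p = 0.0503, unadjusted p under 0.05 in 28), although 852 genes in all were called and the median stayed at -0.56.

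**Figure D4:**
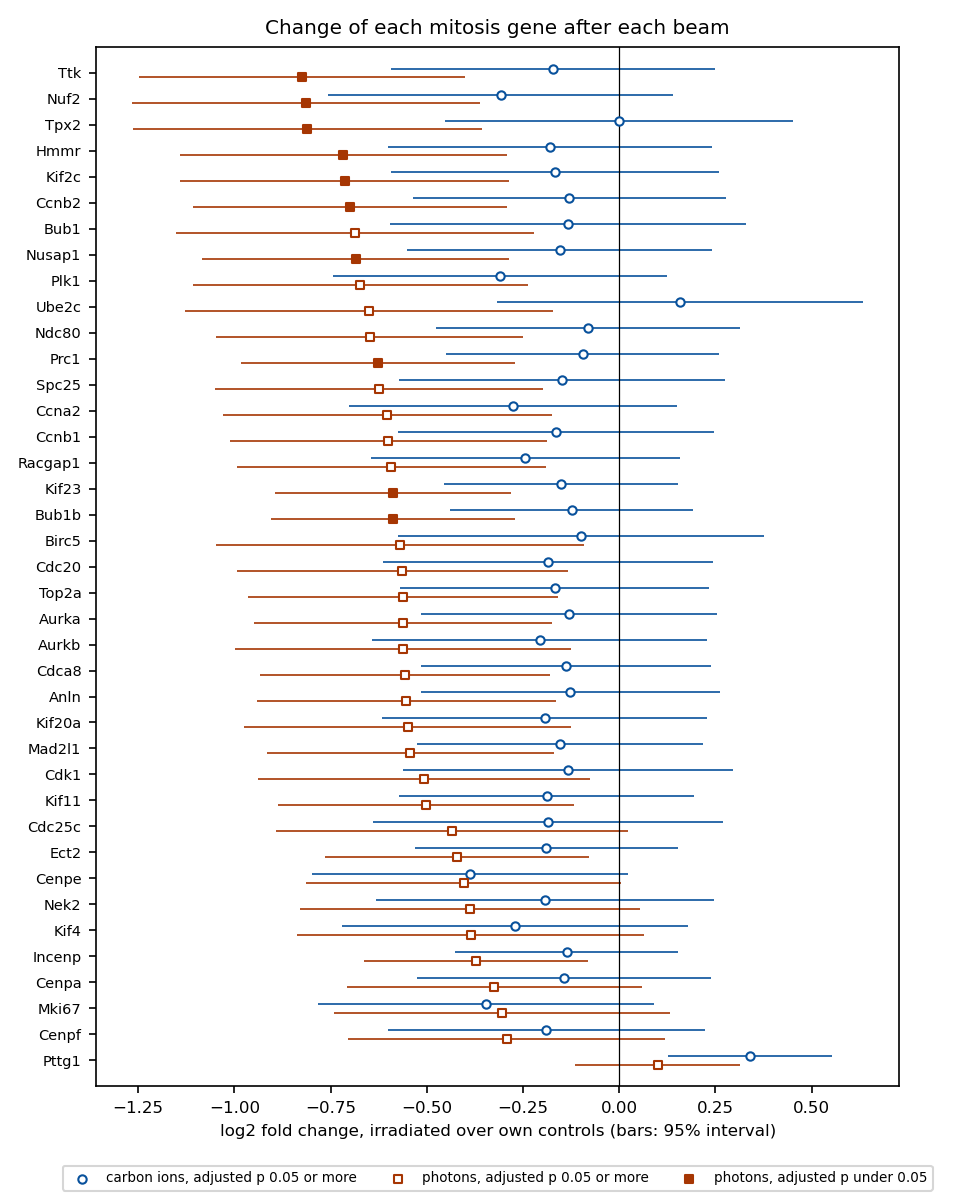
Log2 fold change of each gene after carbon ions (circles) and photons (squares) against the controls of the same arm, with 95% intervals; filled symbols have an adjusted p under 0.05. The photon values of 38 genes lie left of 0, 10 of them filled, while the carbon intervals include 0 for every gene but Pttg1.

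The spindle checkpoint genes had a median of -0.64, with 2 of 4 passing the test. CPM values are given as the lowest, median and highest of the 8 libraries of a group, and changes as log2 fold changes of irradiated over control libraries. Ttk (Mps1, chr9:83834689-83872389), the kinase that starts checkpoint signalling at kinetochores, was at 6.20, 14.6 and 17.9 CPM in the photon controls and 3.74, 6.99 and 11.6 CPM after photons. All 8 irradiated libraries were below the control median and 5 controls were above the highest irradiated library; Ttk fell by 0.83 (SE 0.21, adjusted p = 0.0241). Bub1b (BubR1, chr2:118598211-118641591), part of the complex that inhibits Cdc20, went from 19.4, 41.97 and 57.4 CPM to 19.8, 25.3 and 35.9 CPM. Its irradiated libraries filled the lower part of the control range, with 6 controls above all of them, and it fell by 0.59 (SE 0.15, adjusted p = 0.0296). Bub1, a checkpoint kinase at the centromere, had a log2 fold change of -0.69 (SE 0.23, adjusted p = 0.0757), and Mad2l1 (Mad2), the Cdc20 inhibitor, one of -0.54 (SE 0.18, adjusted p = 0.0791). Photon control 2 was the lowest control in all 4 of these genes.

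The spindle motors and microtubule binders had the lowest median of the 8 role groups, -0.70, and 4 of 6 fell. Tpx2 (chr2:152847964-152895321), which activates Aurora A and nucleates spindle microtubules, was at 22.02, 47.6 and 82.9 CPM in the controls and 14.1, 30.5 and 41.4 CPM after photons, and fell by 0.81 (SE 0.22, adjusted p = 0.0348). Every irradiated library was below the control median, and 5 controls were above the highest of them. Hmmr (chr11:40701395-40733422), a spindle-pole adaptor, was at 11.2, 31.7 and 47.8 CPM and then at 10.7, 19.3 and 23.8 CPM, and fell by 0.72 (SE 0.21, adjusted p = 0.0458). Kif2c (MCAK, chr4:117159639-117182639), a motor that takes microtubules apart at wrong attachments, was at 7.91, 23.6 and 32.1 CPM and then at 7.32, 13.99 and 19.9 CPM, and fell by 0.71 (SE 0.21, adjusted p = 0.0478). Nusap1 (chr2:119618298-119651244), which bundles microtubules around chromosomes, was at 14.8, 33.8 and 43.6 CPM and then at 10.4, 19.9 and 26.6 CPM, and fell by 0.68 (SE 0.19, adjusted p = 0.0427). In each of these 3 genes photon-irradiated replicate 1 lay below every control, in Nusap1 together with replicate 5, and 5 controls lay above the highest irradiated library. Kif11 (Eg5), which pushes the spindle poles apart, went from 35.8, 84.7 and 109.9 CPM to 30.98, 57.2 and 73.8 CPM, a change of -0.50 (SE 0.19, adjusted p = 0.113) that did not pass. Kif4, a chromosome-bound motor, had -0.39 (SE 0.22, adjusted p = 0.313).

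Among the cytokinesis genes 2 of 6 fell and the median was -0.57. Kif23 (MKLP1, chr9:61915905-61946774), the motor of the centralspindlin complex, was at 34.3, 61.1 and 84.5 CPM in the controls and 24.7, 40.4 and 55.7 CPM after photons. It fell by 0.59 (SE 0.15, adjusted p = 0.0253), with 4 controls above the highest irradiated library. Prc1 (chr7:80294450-80316259), which bundles the antiparallel microtubules of the central spindle, was at 31.3, 74.98 and 102 CPM and then at 27.1, 51.01 and 62.7 CPM, and fell by 0.63 (SE 0.17, adjusted p = 0.0372). Racgap1, the partner of Kif23 in centralspindlin, had a log2 fold change of -0.59 (SE 0.20, adjusted p = 0.0767). Anln, the scaffold of the contractile ring, was at 32.7, 95.6 and 133 CPM and 35.05, 62.5 and 91.01 CPM, a change of -0.55 (SE 0.19, adjusted p = 0.0841) that did not pass. Ect2, the exchange factor that activates RhoA at the division plane, had the smallest change of the 6, -0.42 (SE 0.17, adjusted p = 0.135).

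Of the genes of mitotic entry, 1 of 8 passed, with a median of -0.58. Ccnb2 (chr9:70407692-70421547), a B-type cyclin, was at 15.8, 35.1 and 51.5 CPM in the photon controls and 10.2, 21.1 and 32.2 CPM after photons, and fell by 0.70 (SE 0.20, adjusted p = 0.0430). All 8 irradiated libraries were below its control median. Ccnb1, the main partner of Cdk1, was at 22.6, 59.7 and 80.7 CPM and 18.6, 37.5 and 55.7 CPM, a change of -0.60 (SE 0.20, adjusted p = 0.0787). Of the 50-base stretches of Ccnb1 transcripts, 23.4% also occur in other genes, among them the pseudogene Ccnb1-ps, so its counts depend on how reads were divided. Cdk1 itself was at 21.4, 59.6 and 82.6 CPM and 21.7, 41.05 and 59.8 CPM, with a change of -0.51 (SE 0.21, adjusted p = 0.151). Plk1, the Polo kinase needed from entry to cytokinesis, was at 17.1, 41.6 and 59.4 CPM and 13.5, 25.4 and 40.3 CPM, with a change of -0.67 (SE 0.21, adjusted p = 0.0632). The groups of all 3 overlapped through the same libraries, with photon control 2 near the bottom of the irradiated range. Nek2, a centrosome kinase, had the smallest change of the 8, -0.39 (SE 0.22, adjusted p = 0.301).

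Among 6 kinetochore and centromere genes Nuf2 fell and the median was -0.51. Nuf2 (chr1:169497934-169531464), a subunit of the Ndc80 complex that holds microtubules, was at 6.41, 16.8 and 26.7 CPM in the photon controls and 4.86, 9.01 and 13.5 CPM after photons, and fell by 0.81 (SE 0.22, adjusted p = 0.0333). The other subunits of that complex among the 39 genes came close to the threshold or missed it: Ndc80 was at 5.71, 12.9 and 18.9 CPM and 4.24, 8.55 and 10.9 CPM with a change of -0.65 (SE 0.19, adjusted p = 0.0529). Spc25 had a change of -0.62 (SE 0.21, adjusted p = 0.0777). The remaining kinetochore genes had smaller values, with -0.32 for Cenpa, the centromeric histone H3 variant, -0.40 for Cenpe, a plus-end motor, and -0.29 for Cenpf. Incenp, Birc5, Cdca8 and Aurkb, which travel together as the chromosomal passenger complex, gave no call, and 4 of 4 had an unadjusted p under 0.05. Aurkb, its kinase, was at 9.91, 26.8 and 40.4 CPM and 8.46, 18.4 and 26.5 CPM, with a change of -0.56 (SE 0.21, adjusted p = 0.119). Its lower bound in the irradiated group was again replicate 1.

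The remaining genes differed in how far they took part. Top2a, which untangles sister chromatids, was at 87.9, 218 and 300.5 CPM in the photon controls and 77.4, 146 and 198 CPM after photons, a change of -0.56 (SE 0.20, adjusted p = 0.0905). Mki67, the antigen Ki-67, was at 95.8, 222 and 284 CPM and 68.4, 169 and 231 CPM, a change of -0.30 (SE 0.21, adjusted p = 0.426); without the libraries rich in muscle RNA its value was 0.11. Cdc20, the activator of the anaphase-promoting complex, was at 18.2, 47.2 and 66.4 CPM and 16.2, 31.8 and 47.7 CPM, a change of -0.56 (SE 0.21, adjusted p = 0.113). Ube2c, the E2 enzyme of that complex, was at 10.9, 28.8 and 41.1 CPM and 7.52, 18.9 and 25.6 CPM, a change of -0.65 (SE 0.23, adjusted p = 0.0990). An exon of Ube2c overlaps Tnnc2, a muscle troponin on the opposite strand that reached 19.3 CPM and was at 0 in 9 libraries; the strand setting of the counting is not given, and the part of Tnnc2 in the Ube2c values was not tested. Pttg1 (securin, chr11:43420250-43426251), the inhibitor of separase, was at 8.001, 9.51 and 10.8 CPM in the controls and 8.68, 9.90 and 11.5 CPM after photons, a change of 0.10 (SE 0.10, adjusted p = 0.618). Its values were the narrowest of the 39 genes in both photon groups, with 6 of 8 irradiated libraries above the control median.

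**Figure D5:**
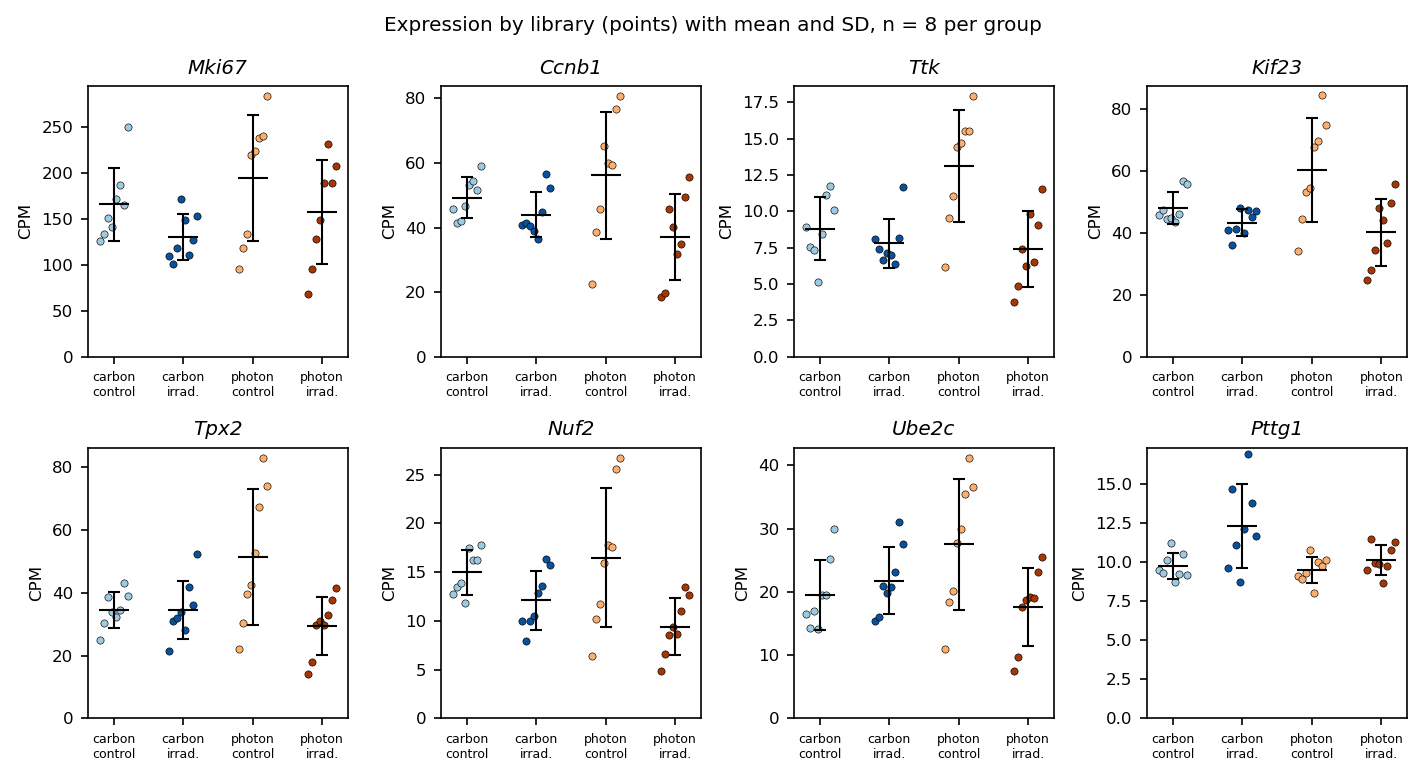
CPM of 8 of the genes in the 8 libraries of each group (points), with mean and SD. Ttk, Kif23, Tpx2 and Nuf2 reach higher in the photon controls than in any other group, the carbon groups overlap broadly, and Pttg1 is highest in the carbon-irradiated libraries.

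The carbon comparison asks the same of the carbon-ion arm. None of the 39 genes passed the test, and none of the 20474 genes did (0%). Fold changes were below 0 for 36 genes, against 48.5% of all genes, with a median of -0.16 against 0.01 over all genes. No gene had an unadjusted p under 0.05 in the lower direction, where 2.07% of all genes did, and 1, Pttg1, had one in the higher direction, where 3.68% did. In 1 gene, Cdc25c, all 8 irradiated libraries lay below the control median, a pattern of 1.15% of all genes. DESeq2 and limma-voom also called none of the 39. The median was -0.09 with the M-titled libraries alone (4 against 5), -0.24 with the D-titled ones alone (4 against 3) and -0.16 without the 3 libraries of this arm that were rich in muscle RNA. In these settings 1, 4 and 2 of the 39 genes had an unadjusted p under 0.05 in either direction. With only the carbon groups in the fit 6 had one. Shares of all genes at that level were not counted in these settings, and the main analysis had 5.75%.

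Mki67 was at 126, 158 and 250.5 CPM among carbon-ion controls and 101, 123 and 172 CPM after carbon ions, a change of -0.35 (SE 0.21, 95% interval -0.78 to 0.09, adjusted p = 0.959). In it, 4 irradiated libraries lay below the lowest control. Cenpe had the lowest value of the 39, -0.39 (SE 0.20, adjusted p = 0.889): it was at 34.95, 37.3 and 65.2 CPM in the controls and 25.1, 30.5 and 45.1 CPM after carbon ions. In Cenpe 7 of 8 irradiated libraries lay below the lowest control, and the one above was replicate 3, which is rich in muscle RNA. Ttk went from 5.16, 8.69 and 11.8 CPM to 6.40, 7.28 and 11.7 CPM and Tpx2 from 24.9, 34.2 and 43.2 CPM to 21.5, 32.97 and 52.3 CPM. Their fold changes were -0.17 and 0.00, and in both genes the groups overlapped over most of their range. The 95% intervals ran from -0.59 to 0.25 for Ttk, -0.45 to 0.45 for Tpx2 and -0.76 to 0.14 for Nuf2. The cyclins, kinases and ring proteins lay close together, with -0.16 for Ccnb1, -0.13 for Cdk1, -0.31 for Plk1, -0.21 for Aurkb, -0.17 for Top2a and -0.13 for Anln. The attachment and checkpoint genes did too, with -0.12 for Bub1b, -0.08 for Ndc80, -0.19 for Kif11 and -0.19 for Cdc20; none of these 10 passed the test. With the M-titled libraries alone 32 of the 39 genes were below 0 and 7 above, Cdc20 among the latter at 0.0126; with the D-titled ones 35 were below and 4 above, Ndc80 among the latter at 0.0541.

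Pttg1 and Ube2c stood on the other side. Pttg1 was at 8.74, 9.39 and 11.2 CPM among carbon-ion controls and 8.71, 11.9 and 16.9 CPM after carbon ions, with 7 of 8 above the control median. Its change was 0.34 (SE 0.10, unadjusted p = 0.00267, adjusted p = 0.466), which did not pass over all genes. Ube2c was at 14.2, 18.3 and 29.9 CPM and 15.3, 20.8 and 30.99 CPM, with a change of 0.16 (95% interval -0.32 to 0.63). Set against the mean of the other 38 genes in the same library, Pttg1 had the highest difference between irradiated and control means in both arms, 0.49 log2 units after carbon ions and 0.64 after photons. Next came Ube2c after carbon ions, 0.34, and Cenpf after photons, 0.28. The lowest were Cenpe after carbon ions, -0.225, and Ttk after photons, -0.32. On this scale Ube2c had -0.12 and Mki67 0.21 after photons, and Mki67 had -0.18 after carbon ions. These differences were not tested.

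The mean of both effects, and their difference, use the same libraries as the comparisons above and add no independent samples. In the mean none of the 39 genes passed, against 0.772% of all genes called, while 32 were lower at an unadjusted p under 0.05, against 7.90% of all genes, and Pttg1 was higher at that level. The smallest adjusted p was that of Nuf2, with a mean effect of -0.56 (SE 0.16, adjusted p = 0.0770), followed by Kif23 with -0.37 (SE 0.11, adjusted p = 0.0867) and Ttk with -0.50 (SE 0.15, adjusted p = 0.0963). Without the libraries rich in muscle RNA, 2 of the 39 instead of 33 had an unadjusted p under 0.05 in either direction and the median was -0.17 instead of -0.36; with M-titled libraries only, 13 had one. DESeq2 called 3 of the 39 in this comparison, and 2.29% of all genes. The difference of effects, carbon ions minus photons, was not called for any of the 39, against 0.0781% of all genes, and 7 were higher at an unadjusted p under 0.05, against 7.82%. Its largest values were those of Tpx2, 0.81 (SE 0.31, adjusted p = 0.266), and Ube2c, 0.81 (SE 0.33, adjusted p = 0.295), and its lowest was that of Mki67, -0.04 (95% interval -0.66 to 0.57). The median difference was 0.39 with 38 values above 0, and 0.04 with 24 above 0 without the libraries rich in muscle RNA. A smaller fall after carbon ions than after photons was thus not shown for any single gene.

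A comparison of untreated tumours between the arms gives the baseline. None of the 39 genes passed, although 9.14% of all genes did, and 6 were lower in the carbon-ion controls at an unadjusted p under 0.05, against 11.3% of all genes. Values were lower in the carbon-ion controls for 32 genes, with a median of -0.19. The lowest were Ttk, -0.57 (SE 0.21, adjusted p = 0.0732), and Tpx2, -0.57 (SE 0.22, adjusted p = 0.0988), genes that also fell after photons against the same photon controls; the highest was Cenpa, 0.20. Without the libraries rich in muscle RNA the median was 0.21, with 33 values above 0. Between the irradiated groups none of the 39 passed, against 5.08% of all genes, and 4 were higher after carbon ions at an unadjusted p under 0.05, against 14.9%. These were Mad2l1, 0.51 (SE 0.18, adjusted p = 0.0875), Pttg1, 0.28 (SE 0.10, adjusted p = 0.101), Spc25, 0.44, and Cenpa, 0.38. Pttg1 was the only one of the 39 to pass without the libraries rich in muscle RNA, where 7% of all genes were called. Mad2l1 was at 34.3, 42.4 and 82.9 CPM after carbon ions and 20.9, 32.9 and 47.4 CPM after photons, and replicate 2 of the carbon-irradiated group held the highest value. Mki67 was the lowest, -0.27.

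Other genes of division were read from fixed lists. Of 72 further mitotic genes 5 fell after photons, with a median of -0.42 and 50 with an unadjusted p under 0.05. Over all genes, 2.10% were called lower after photons and 12.7% were lower at that unadjusted level, and the counts below are read against these shares. Without the libraries rich in muscle RNA no gene of these lists passed after photons, and the medians were -0.10 for the further mitotic genes and -0.06 for the replication genes. Pimreg, a mitotic regulator, fell by 0.82 (SE 0.21, adjusted p = 0.0253). Of 13 condensin and cohesin genes 3 fell, Stag1 by 0.30 (SE 0.07, adjusted p = 0.0225), Ncapg2 by 0.59 (SE 0.16, adjusted p = 0.0325) and Ncapd3 by 0.35 (SE 0.09, adjusted p = 0.033). Of 20 DNA replication genes 4 fell, among them Gins1, part of the replicative helicase, by 0.72 (SE 0.19, adjusted p = 0.0325) and Ccne1, the cyclin of S-phase entry, by 0.78 (SE 0.22, adjusted p = 0.0382). Replication genes had a median of -0.46, close to that of the further mitotic genes. None of 15 subunits of the anaphase-promoting complex passed, and their median was -0.10, with values of -0.34 for Anapc11 and -0.45 for Anapc15. After carbon ions no gene of these lists passed; the values of smallest p were those of Espl1, separase, at -0.43 (adjusted p = 0.752) and Aspm, a spindle-pole protein, at -0.42 (adjusted p = 0.772). Among the smaller complexes the values of smallest p after carbon ions were -0.13 for Anapc5, 0.14 for Cdc26, -0.15 for Ncapd3 and -0.21 for Ncapg2. Among replication genes they were -0.38 for Cdc6, the helicase loader, and -0.16 for Mcm7, a helicase subunit.

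Regulators of these genes gave few calls, and none after carbon ions, where the values of smallest p were -0.14 for Tfdp2, 0.15 for Lin37, -0.38 for E2f7 and -0.14 for Rb1. None of 16 genes of the DREAM, MuvB and NF-Y complexes and their partners passed after photons, with a median of -0.10. Foxm1, the forkhead activator of mitotic genes, was at 34.2, 80.8 and 107 CPM in the photon controls and 36.2, 64.4 and 81.2 CPM after photons (-0.36, adjusted p = 0.244). Mybl2, its partner on MuvB, had -0.61 (adjusted p = 0.101) and Rbl1, the pocket protein p107, -0.49 (adjusted p = 0.0543). Of 6 E2F and pocket genes E2f7 fell by 0.82 (SE 0.24, adjusted p = 0.0452); E2f7 is a repressor and not an activator, and its paralogue E2f8 had -0.73 (adjusted p = 0.0503). Of 10 targets of p53, Trp53inp1 rose after photons by 0.50 (SE 0.10, adjusted p = 0.00795), from 48.03, 65.9 and 87.05 CPM to 80.5, 93.1 and 104 CPM. Over all genes, 1.71% were called higher after photons. After carbon ions all 10 targets were above 0 and 6 had an unadjusted p under 0.05, against 3.68% of all genes higher at that level. In the mean of both effects 3 of the 10 rose, Trp53inp1, Cdkn1a and Mdm2, against 0.440% of all genes. Without the libraries rich in muscle RNA no gene of these lists passed after photons. In that setting 5 of the 10 p53 targets had an unadjusted p under 0.05 after photons. The share of all genes at that level was not counted there, and was 21.5% in the main analysis. In the mean of both effects Ccng1 was then the only target to pass, against 0.0616% of all genes. Mdm2, the ligase of p53, had 0.21 (adjusted p = 0.0552) after photons, and Ccng1 had 0.31 (adjusted p = 0.521) after carbon ions. Cdkn1a (p21), the inhibitor of cyclin-dependent kinases, did not pass in either arm alone. It was at 18.5, 25.97 and 50.8 CPM in the photon controls and 25.1, 56.5 and 66.7 CPM after photons (0.83, adjusted p = 0.0913). In the carbon arm it was at 18.1, 29.9 and 58.5 CPM and 26.6, 83.2 and 129 CPM (1.24, adjusted p = 0.308), with irradiated libraries from below the control median to above every control.

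Markers of other cells moved with the photon comparison too, in which 2.10% of all genes were called lower. Fibroblast markers summed to 13110 to 27940 CPM in the photon controls and 9754 to 17870 CPM after photons, and 2 of 10 fell, Pdgfrb by 0.52 and Fap by 0.59. Macrophage markers summed to 782 to 1628 CPM and 510.1 to 1058 CPM, with 2 of 8 lower (Csf1r by -0.54, Mrc1 by -0.77), endothelial markers to 254.9 to 491 CPM and 185 to 441 CPM, with 2 of 8 lower (Emcn by -0.55, Tek by -0.91), and neutrophil markers to 23.6 to 61.5 CPM and 15.01 to 34.7 CPM, with 3 of 5 tested lower (Cxcr2 by -0.93, Csf3r by -0.79, Retnlg by -1.89). T cell markers were low, at 5.97 to 13.5 CPM and 3.59 to 8.57 CPM, with 2 of 7 tested lower (Cd2 by -1.65, Cd3d by -1.995) and Cd8a higher by 1.23. All 10 skeletal muscle markers had log2 fold changes between -3.40 and -2.44 and an unadjusted p under 0.05, and none passed; Mylpf and Myh1 had the smallest p, with -3.17 and -3.36. Epithelial markers summed to 3126 to 4684 CPM in the photon controls and 2597 to 4643 CPM after photons, and none of 10 passed; Cldn4 and Cldn7 had 0.69 and 0.44. B cell, acinar and fat markers were low in this arm, with sums of 0.52 to 1.77 CPM, 6.46 to 21.0 CPM and 2.44 to 50.3 CPM. Without the libraries rich in muscle RNA no marker passed after photons. An unadjusted p under 0.05 was then found in 5 of 10 fibroblast, 5 of 8 endothelial, 4 of 7 T cell and 3 of 5 neutrophil markers. Macrophage markers had 1 of 8 (7 of 8 in the main analysis) and acinar markers 1 of 2. No muscle, epithelial, fat or B cell marker had one. The share of all genes at that level was not counted in this setting, and was 21.5% in the main analysis. In the carbon arm no marker passed. The 5 fat markers were all below 0 after carbon ions, with a median of -3.55, and 4 had an unadjusted p under 0.05, against 2.07% of all genes lower at that level; Lep (-4.08) and Plin1 (-3.55) had the smallest p. They summed to 4.25 to 252 CPM in the carbon-ion controls (median 8.76) and 3.73 to 21.7 CPM after carbon ions (median 6.08), and the highest sum was that of carbon-ion control 5. The medians of the other lists of markers in that arm lay between -0.11 and 0.21. The part of these cells in the values of the mitosis genes was not tested. Leaving out the libraries rich in muscle RNA is no such test, because it holds none of the other cells fixed. It also leaves only 4 photon controls, whose means of the mitosis genes run from 4.04 to 5.45.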

How the data were processed

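RNA from tumour tissue was sequenced as stranded mRNA libraries, per the labels' protocols, with RNA integrity numbers above 7.0. The authors deposited 1 table of estimated counts per gene, made with FastQC 0.12.0, Trimmomatic 0.32 and RSEM 1.3.3 on mm10, per the submitters' processing notes. The aligner, the annotation and the strand setting of the counting are not given in the sources used here. Estimated counts divide reads among similar transcripts, which matters for Ccnb1, Cdc20 and Plk1, for which over 5% of 50-base stretches occur in other genes.

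The values were rounded to whole numbers. Genes were kept with edgeR's filterByExpr (minimum count 10), scaled by TMM and fitted in 1 quasi-likelihood model of the 4 groups and 32 libraries (edgeR 4.0.16, R 4.3.3), with Benjamini-Hochberg adjustment over 20474 genes and a threshold of 0.05. CPM use the same scaling; log2 CPM use a prior count of 2. Intervals have a level of 95%. The script was tested on simulated data. Alternatives were DESeq2 1.42.0, limma-voom 3.58.1, RLE and upper-quartile scaling, no filter, only the groups compared, M-titled libraries only, the title letter as a term and leaving out each library; those without muscle-rich libraries and with D-titled libraries only were chosen after the data were seen. Replicate numbers follow the order of deposition and pair nothing.

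The 39 genes and all lists were chosen with earlier results of these data known, so no list is independent evidence of its direction. Described in full were 12 genes fixed by role, all called genes where 12 or fewer, the 3 of smallest p and the highest and lowest values in each comparison, and, of other lists, the 2 of smallest p in each arm with Foxm1, Mybl2 and Cdkn1a; the 5 members of a list named beyond this were chosen after their values were seen. One gene that this rule names is not reported here. Promoters come from RefSeq (GRCm38.p6) and gene positions from GENCODE on the same build; 24 of 35 promoter windows matched the gene's own transcripts in direction and none in reverse.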

Additional observations from a re-analysis of the deposited data

Results flagged for a closer look

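In groups of 8 libraries, a value was singled out where its gap to the nearest other library exceeded Dixon's 95% critical share of the group's range. Of 160 groups examined, 8 gave such a value, and chance gives about 1 in 20. Replicate 8 of the carbon-irradiated group was the highest of its group in 4 of them, with 39.63 CPM for Bub1b, 11.69 CPM for Ttk, 26.9 CPM for Kif4 and 74.1 CPM for Prc1. In the same group replicate 2 was high for Mad2l1 at 82.89 CPM and replicate 3 for Cenpe at 45.15 CPM. Carbon-ion control 4 was high for Cenpe at 65.16 CPM, and photon control 2 was low for Bub1 at 7.551 CPM.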

How the results depend on the processing

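The number of the 39 genes that passed after photons depended on the settings. When 1 library was left out the median lay between -0.68 and -0.46, with 38 genes below 0 in each of 16 such fits. From 0 to 31 genes passed in these fits. None passed without photon control 3, 5 or 8 or photon-irradiated replicate 1, where 1.16% to 1.97% of all genes were called, and 31 passed without photon control 2, where 8.05% were. The count was 10 with RLE scaling (3.9% of all genes called) or upper-quartile scaling (4.69%), against 3.81% of all genes in the main analysis. It was 8 with the title letter as a term (3.53%) and 4 without the filter (1.12%). DESeq2 gave 17 (7.44%), limma-voom 2 (3.42%) and the M-titled libraries alone 2 (3.14%). The count was 0 with only the groups compared in the fit (4.41%) and 0 without the libraries rich in muscle RNA (0.00947%). In that last setting 32 genes were below 0 after photons and 7 above, Mki67 turned to 0.11 and the median between the controls turned to 0.21. Pttg1 alone then passed between the irradiated groups, where 7% of all genes were called. With M-titled libraries 1 gene passed between the irradiated groups too, against 5.34% of all genes. DESeq2 called 3 genes in the mean of both effects (2.29% of all genes) and 1 between the controls (11.6% of all genes). With M-titled libraries only, Cdc20 after carbon ions turned to 0.0126, and with D-titled ones Ndc80 turned to 0.0541. No paired analysis was possible because replicate numbers follow accession order. In the main analysis 0.772% of all genes were called in the mean of both effects, 9.14% between the controls and 5.08% between the irradiated groups. Leaving out 1 library gave 0 of the 39 genes after carbon ions and in the difference of effects. It gave 0 to 15 in the mean of both effects (15 without photon control 2), 0 to 3 between the controls and 0 to 2 between the irradiated groups. The medians then ran from -0.20 to -0.13 after carbon ions, -0.42 to -0.32 in the mean, 0.30 to 0.51 in the difference, -0.31 to -0.12 between the controls and 0.12 to 0.31 between the irradiated groups. The cause of these shifts was not tested. The day of collection of each library, the dose and the meaning of the titles are not given in the sources used here, and title number and photon treatment cannot be told apart.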
